A study of Mus musculus with 6 samples.

Results

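The insulin-like growth factor (IGF) axis and Grb10 were followed in cultured oligodendrocyte progenitor cells (OPC), the dividing precursors of myelinating oligodendrocytes. The set held 10 genes, the ligands Igf1 and Igf2, the receptors Igf1r and Igf2r, the binding proteins Igfbp2, Igfbp3, Igfbp4 and Igfbp5, and the intracellular adaptors Irs1 and Grb10. Its members were taken as every probe whose gene symbol in the array's table was one of these names, which gave 21 of the 45281 probes. The genes were chosen from earlier results of this same tissue comparison, so the values and 95% intervals below describe them, with no p-value for any of them. Their differences in this contrast are not evidence that the axis differs between the tissues.

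Spinal cord OPC (n = 3) were set against cerebrum OPC (n = 3), all from C57BL/6 mouse pups at postnatal day 6 to 8 and all grown for 7 days in vitro in proliferating conditions with 10 ng/ml PDGF-AA, the mitogen that keeps OPC dividing. Each preparation pooled 3 to 4 pups, and samples with the same number came from the same preparation. The series was made to find genes that differ between the tissues and bear on OPC migration. No group without PDGF-AA was analysed here, and every value comes from a culture and not from cells taken straight from the tissue.

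IGF1 and IGF2 are secreted growth factors that signal through the receptor tyrosine kinase IGF1R, whereas IGF2R, also the cation-independent mannose-6-phosphate receptor, binds IGF2 and carries it to lysosomes. IGF-binding proteins hold the ligands outside the cell and can limit or prolong their access to the receptor, and in the oligodendrocyte lineage IGF1 is known to promote survival, proliferation and myelination. Inside the cell IRS1 docks PI3-kinase on active receptors, and GRB10 binds active insulin and IGF1 receptors and dampens their signal. Grb10, Igf2 and Igf2r are imprinted in the mouse.

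In these arrays Igfbp2 was lower in spinal cord OPC, at about 0.5 of the cerebrum level by both of its probes, and Grb10 was higher in spinal cord OPC by 1.82-fold at its brightest probe. Igfbp5 was slightly higher in spinal cord OPC at 2 of its 3 probes. The receptors, Igfbp3, Igfbp4, Irs1 and the measured Igf1 probe overlapped between the tissues, and Igf2 lay at background. In RNA from whole cultures, fewer cells that carry a transcript and less of it per cell cannot be told apart.

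The Igfbp2 and Igfbp5 genes are direct neighbours on mouse chromosome 1 and lay on opposite sides in this comparison, and Grb10 on chromosome 11 was the adaptor with the largest difference. The 250 bases before the first listed start of each are therefore shown, 5′ to 3′ on the gene's strand, from RefSeq on build GRCm38.p6. They span chr1:72824230-72824479 on the plus strand for Igfbp2, chr1:72874866-72875115 on the minus strand for Igfbp5 and chr11:12037421-12037670 on the minus strand for Grb10. Capitals mark the GC box GGGCGG on either strand, overlapping matches included.
Igfbp2: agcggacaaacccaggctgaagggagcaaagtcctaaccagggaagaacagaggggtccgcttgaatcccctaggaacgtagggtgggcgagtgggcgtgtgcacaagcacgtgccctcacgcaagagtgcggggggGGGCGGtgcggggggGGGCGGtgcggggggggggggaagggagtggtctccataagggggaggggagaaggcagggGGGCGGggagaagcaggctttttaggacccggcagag
Igfbp5: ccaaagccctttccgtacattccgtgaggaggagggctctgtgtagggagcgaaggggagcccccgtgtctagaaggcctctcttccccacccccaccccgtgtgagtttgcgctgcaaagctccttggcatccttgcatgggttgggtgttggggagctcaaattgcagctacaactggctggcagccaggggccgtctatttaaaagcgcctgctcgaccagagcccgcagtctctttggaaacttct
Grb10: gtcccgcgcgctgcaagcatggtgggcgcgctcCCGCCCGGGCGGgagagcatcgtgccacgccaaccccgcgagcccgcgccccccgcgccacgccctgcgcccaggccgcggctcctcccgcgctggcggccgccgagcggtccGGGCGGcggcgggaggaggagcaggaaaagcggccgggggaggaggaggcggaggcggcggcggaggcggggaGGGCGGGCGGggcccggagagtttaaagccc
The Grb10 window held 5 GC boxes and was 81.2% G or C, the Igfbp2 window held 3 at 67.2%, and the Igfbp5 window held 0 at 58.8%, beside a median of 52.4% G or C over all windows of this length. A GC box was held by 32.7% of all promoter windows listed, as did 7 of the 15 listed starts of the 10 genes. TATAAA (12.4% of all windows) and TAATTA (4.84%), both searched on either strand, were absent from the 3 printed windows. Grb10 has another listed start, whose window had 0 GC boxes and 54% G or C. The second listed start of Igfbp2 likewise had 0, at 56.4% G or C. The deposited values do not tell which start was used in either tissue.

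Probe intensities were measured on Illumina bead arrays, and the values below are log2 of the authors' deposited linear intensities. All 6 arrays had the same lowest and highest value, 36.5 and 49682, and a median of 64.5. A floor for background was set on each array at the 95th percentile of its 1302 probes for olfactory receptors, which lay between 6.07 and 6.10 on the log2 scale. A probe was tested where at least 3 of the 6 arrays exceeded it, which kept 20988 probes and 11226 named genes, a gene being read from its brightest probe. Background was still in the values, so the difference of a dim probe is understated, and levels of different genes are not set against each other. Of the OPC marker genes 15 of 16 were above the floor, all except C1ql1. P-values set a tissue difference against the spread between samples of the same tissue, which come from different preparations. Those given with the preparation as a block set it against the spread of the differences within preparations.

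Of the 21 probes 17 passed the floor, from 9 of the 10 genes. The 4 that did not were the only Igf2 probe, 2 of the 3 Igf1 probes and 1 of the 3 Grb10 probes. The 3 samples of one tissue lay wholly above those of the other at 5 of the 17 probes, against 14.5% of all tested probes, and by the brightest probe this held for 3 of the 9 genes, Igfbp2, Igfbp5 and Grb10, against 15.6% of all tested genes. Limma's moderated test with Benjamini-Hochberg adjustment called 2.95% of the tested genes (331 of 11226), 1.87% with the spinal cord side higher and 1.08% with it lower, along with 2.31% of the tested probes. The 331 became 574 without cerebrum sample 3, and 202, 215 and 196 without cerebrum sample 2, spinal cord sample 1 and spinal cord sample 2. The called members were Grb10, higher, and Igfbp2, lower, 2 of 9 genes and 3 of 17 probes. Nothing is read from that count, because this contrast chose them. With the preparation as a block, which called 6.33% of all genes, Grb10 and Igfbp2 were again the called member genes, and the called member probes were 4 of 17 in place of 3, the added one being the second Igfbp5 probe. Nothing is read from these counts either.

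**Figure D1:**
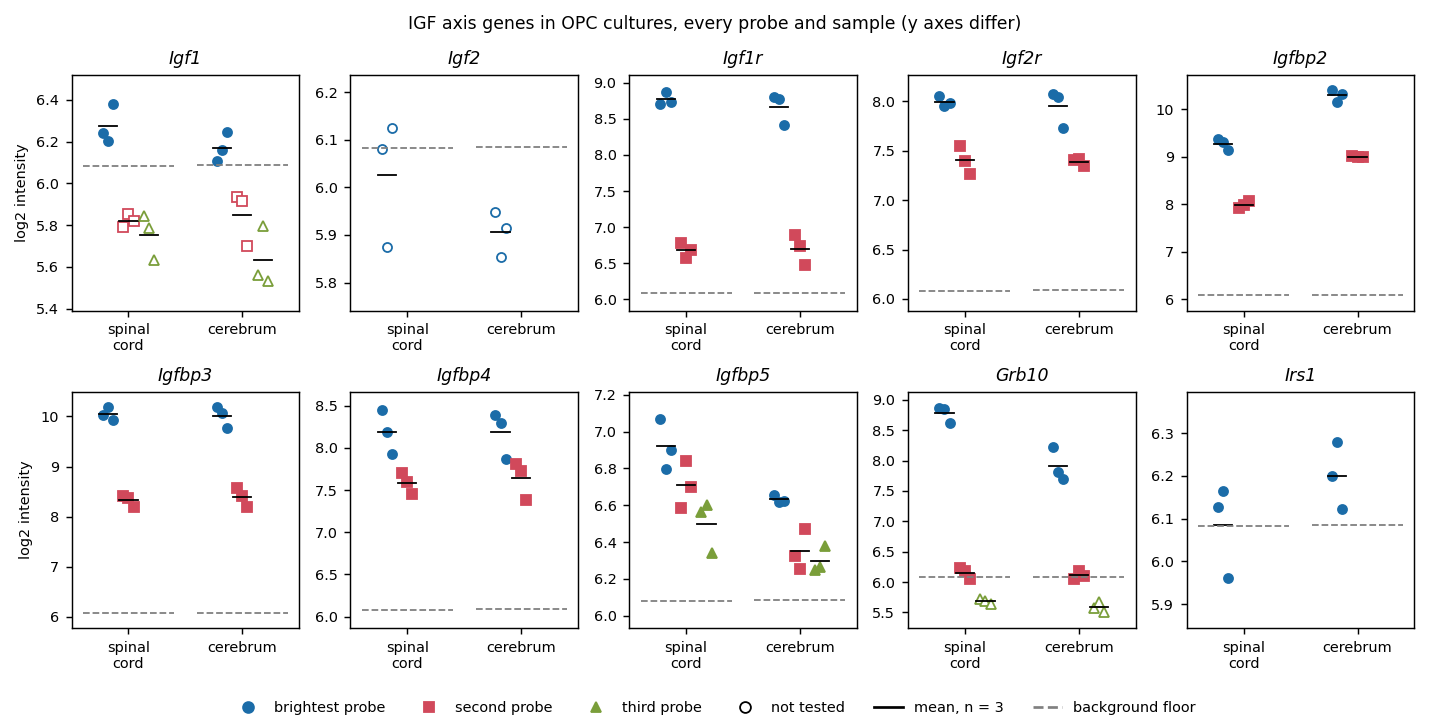
Log2 probe intensity (vertical axes, which differ between panels) of the 10 IGF axis genes in the 3 spinal cord and 3 cerebrum OPC samples, with 1 symbol per probe and sample, black bars at the mean of 3 and a dashed line at the background floor. The 2 Igfbp2 probes are lower in spinal cord OPC, the brightest Grb10 probe is higher, and the Igf2 probe and open symbols lie near the floor.

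Both ligands were at or near background. The brightest Igf1 probe, for transcript variant 1, read 6.24, 6.20 and 6.38 in spinal cord samples 1 to 3, against 6.11, 6.16 and 6.25 in cerebrum samples 1 to 3. The tissues overlapped, with a difference of 0.10 ± 0.087 (spinal cord minus cerebrum, log2, ± SE here and below, n = 3 each). A further variant 1 probe read 5.79 to 5.85 in spinal cord and 5.70 to 5.94 in cerebrum OPC, and the variant 2 probe 5.63 to 5.84 in spinal cord and 5.53 to 5.80 in cerebrum OPC. None of these 12 readings of the other 2 probes was above the floor, so these data measure Igf1 at 1 of its 3 probes only. The Igf2 probe read 6.08, 5.87 and 6.12 in spinal cord OPC and 5.95, 5.85 and 5.91 in cerebrum OPC. It exceeded the floor in 2 of 3 spinal cord samples and 0 of 3 cerebrum samples, too few to be tested.

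Both receptors were detected in every sample at all 4 of their probes, and no tissue difference was resolved. The brighter probe of Igf1r, the receptor that carries the IGF signal, read 8.70, 8.88 and 8.73 in spinal cord OPC and 8.80, 8.78 and 8.41 in cerebrum OPC, a difference of 0.11 ± 0.13. Without cerebrum sample 3, the lowest of the 6, that difference was -0.020. The second Igf1r probe read 6.58 to 6.78 in spinal cord OPC and 6.47 to 6.88 in cerebrum OPC. A probe listed under an older name of Igf1r, outside the symbol rule, gave linear intensities of 158, 164 and 140.2 in spinal cord OPC and 155, 143 and 129 in cerebrum OPC, which also overlapped. The brighter probe of Igf2r, the receptor that clears IGF2, read 8.05, 7.95 and 7.98 in spinal cord OPC and 8.07, 8.04 and 7.73 in cerebrum OPC, a difference of 0.047 ± 0.12. Again only cerebrum sample 3 stood below the rest. The second Igf2r probe read 7.26 to 7.55 in spinal cord OPC and 7.34 to 7.42 in cerebrum OPC. The 95% intervals of the 4 receptor differences reached from -0.27 to 0.38, so differences inside that range were not resolved with 3 samples a tissue.

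Among the binding proteins Igfbp2, a secreted carrier of IGF1 and IGF2, had the largest difference of the set. Its brighter probe read 9.36, 9.32 and 9.14 in spinal cord OPC, against 10.41, 10.14 and 10.33 in cerebrum OPC, with means of 9.27 ± 0.12 and 10.29 ± 0.14 (SD). The dimmer probe read 7.93, 7.98 and 8.07 in spinal cord OPC and 9.01, 9.00 and 8.99 in cerebrum OPC. At both probes every spinal cord sample lay below every cerebrum sample, and the highest spinal cord and lowest cerebrum values of the brighter probe were 0.78 apart. The difference was -1.02 ± 0.12 at the brighter probe (95% interval -1.27 to -0.77) and -1.01 ± 0.10 at the dimmer one (-1.23 to -0.78), so that the cerebrum level was 2.03 and 2.01 times the spinal cord level. Within preparations 1, 2 and 3 the brighter probe differed by -1.05, -0.82 and -1.19. Leaving out any 1 sample kept its difference between -1.10 and -0.95. Of all 11226 tested genes 87 had a difference at least as large in either direction, and 32 were as low in spinal cord OPC.

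Igfbp5, the neighbouring gene, encodes a binding protein that also attaches to the extracellular matrix. Its brightest probe read 7.07, 6.80 and 6.90 in spinal cord OPC, against 6.66, 6.62 and 6.62 in cerebrum OPC, a difference of 0.29 ± 0.10 (95% interval 0.08 to 0.50). Its second probe read 6.58, 6.84 and 6.70 in spinal cord OPC and 6.33, 6.25 and 6.47 in cerebrum OPC, a difference of 0.36 ± 0.10 (0.14 to 0.58). The tissues did not overlap at these probes, and each of the 3 preparations was higher in spinal cord OPC. The third probe, at 6.56, 6.60 and 6.34 in spinal cord OPC and 6.25, 6.26 and 6.38 in cerebrum OPC, did overlap, and in preparation 3 it was lower in spinal cord OPC by a difference of -0.042. All of these readings lay within about 1 log2 unit of the floor. Subtracting the olfactory receptor background raised the 3 differences to 0.56, 0.86 and 0.54, so their size depends on how background is treated and their direction did not.

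Igfbp3 and Igfbp4, the other binding proteins of the set, gave no resolved difference. The brighter Igfbp3 probe read 10.04, 10.18 and 9.94 in spinal cord OPC and 10.18, 10.06 and 9.77 in cerebrum OPC, a difference of 0.045 ± 0.13, and the dimmer probe differed by -0.074 ± 0.12. The brighter Igfbp4 probe read 8.44, 8.19 and 7.93 in spinal cord OPC and 8.39, 8.30 and 7.87 in cerebrum OPC, a difference of 0.0033 ± 0.16. Igfbp4 varied more between preparations than between tissues, with an SD of 0.26 among spinal cord and 0.28 among cerebrum samples. Its within-preparation differences were 0.056, -0.11 and 0.060, and the dimmer Igfbp4 probe differed by -0.058 ± 0.13. The 95% intervals of these 4 probes reached from -0.34 to 0.35, and the sign of such small differences turned when single samples were left out.

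**Figure D2:**
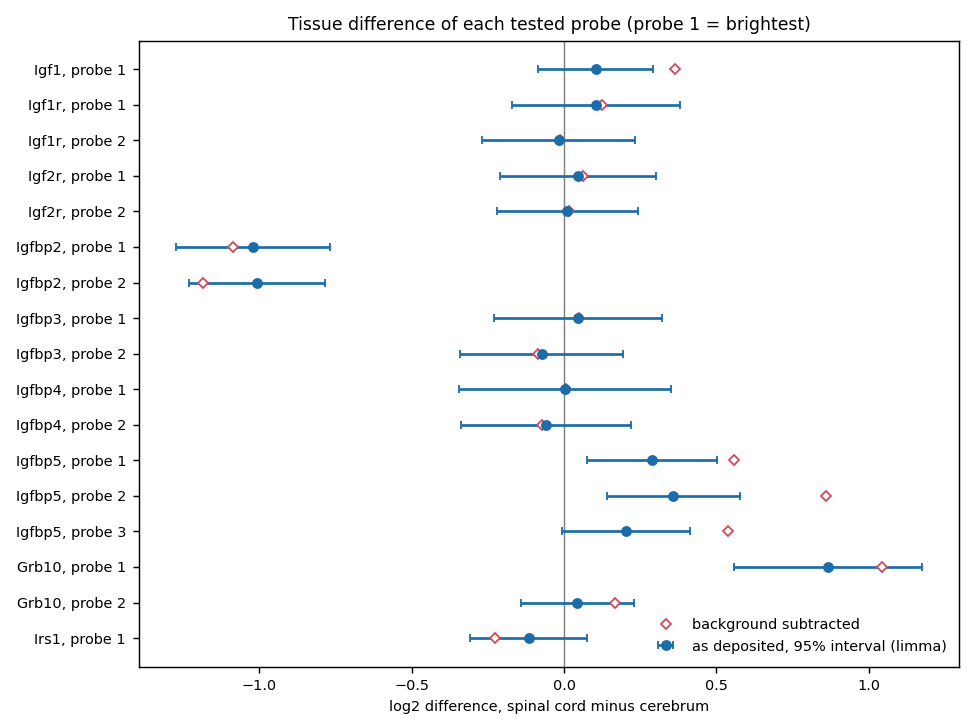
Log2 difference, spinal cord minus cerebrum OPC (horizontal axis), of the 17 tested probes of the IGF axis genes, with points and bars for the limma estimate and its 95% interval and open diamonds for the value after background subtraction. Both Igfbp2 probes lie near -1, the brightest Grb10 probe lies at 0.87, and 11 of the 17 lie within 0.2 of zero.

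Grb10, the adaptor that dampens insulin and IGF1 receptor signalling, was the member with the largest difference towards spinal cord OPC. Its brightest probe read 8.86, 8.85 and 8.62 in spinal cord OPC, against 8.22, 7.80 and 7.70 in cerebrum OPC, with means of 8.78 ± 0.14 and 7.91 ± 0.28 (SD). All spinal cord samples lay above all cerebrum samples, and cerebrum sample 1 stood above the other cerebrum samples. The difference was 0.87 ± 0.14 (95% interval 0.56 to 1.18), and it was 0.64, 1.04 and 0.92 within preparations 1, 2 and 3. It ranged between 0.76 without cerebrum sample 3 and 1.02 without cerebrum sample 1. Of all tested genes 125 differed by as much in either direction, and 82 were as high in spinal cord OPC.

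The other Grb10 probes did not show this difference. The second probe read 6.23, 6.18 and 6.05 in spinal cord OPC and 6.04, 6.18 and 6.10 in cerebrum OPC, a difference of 0.044 ± 0.085. It exceeded the floor in 2 of 3 samples of each tissue. The third probe read 5.64 to 5.72 in spinal cord OPC and 5.51 to 5.67 in cerebrum OPC, below the floor throughout. The array's table gives no transcript for any of the 3, so which Grb10 transcripts they detect is not known here, and the Grb10 difference rests on 1 probe. Irs1, the docking protein that links active receptors to PI3-kinase, read 6.13, 6.16 and 5.96 in spinal cord OPC and 6.20, 6.28 and 6.12 in cerebrum OPC. These overlapping values, close to the floor, gave a difference of -0.12 ± 0.089.

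The samples of preparation 3 were often the lowest of their tissue among these genes. Preparation 3 was the lowest in both tissues at 7 of the 17 tested member probes (41.2%), at Grb10, Igf2r, Irs1 and both probes of Igfbp3 and Igfbp4, against 20.5% of all tested probes. Cerebrum sample 3 was the lowest of all 6 samples at 7 of the 17 as well (41.2%), against 24.5% of all tested probes. The members were chosen on these samples, and neither share was tested.

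**Figure D3:**
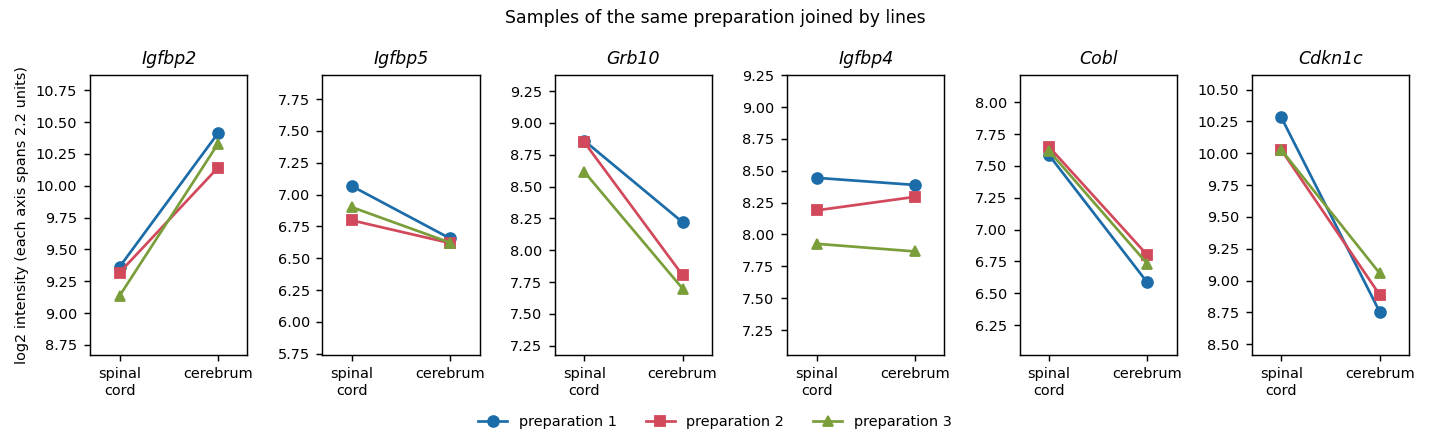
Log2 intensity of 6 genes at their brightest probe (vertical axes, each spanning the same range), with lines that join the spinal cord and the cerebrum OPC sample of 1 preparation. For Igfbp2 and Grb10 all 3 lines run in 1 direction, whereas for Igfbp4 the lines lie apart by preparation and differ between tissues by no more than 0.11.

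On chromosome 11 the Grb10 gene lies between Ddc and Cobl in the RefSeq gene order. Cobl, which encodes the actin nucleator cordon-bleu, read 7.58, 7.65 and 7.62 in spinal cord OPC and 6.58, 6.80 and 6.73 in cerebrum OPC. It rose in spinal cord OPC by 0.91 ± 0.10, or 1.88-fold (limma, adjusted p = 0.00017). Ddc, which encodes the decarboxylase that makes dopamine and serotonin, differed by 0.083 ± 0.13 (adjusted p = 0.954). Its means, 6.23 in spinal cord and 6.15 in cerebrum OPC, lay close to the floor, where a difference would be understated. Thus 1 of the 2 direct neighbours of Grb10 passed the test, on the same side as Grb10. Of the other members' direct neighbours outside the set, the 6 that could be tested, Mrpl23, Synm, Tns3, Top2a, Tnp1 and Rhbdd1, differed by -0.10 to 0.13, with limma's adjusted p between 0.82 and 0.987. Among these Tnp1 also lay close to the floor, with means of 6.10 in spinal cord and 6.14 in cerebrum OPC. The neighbours Ins2, Igfbp1, Mas1 and Pmch did not pass the floor.

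Genes whose 6 readings followed most closely those of Grb10, by the root mean square (RMS) difference of mean-centred log2 values, were Tanc1 at 0.058, Dpysl5 at 0.091, Erbin at 0.096, Mapt at 0.11 and Myrip at 0.11. Tanc1 encodes a postsynaptic scaffold protein, Dpysl5 a collapsin response mediator, Erbin a protein that binds ERBB2, Mapt the microtubule protein tau and Myrip a linker of myosin and Rab proteins. Closest to Igfbp2 were Tle4, a transcriptional corepressor, at 0.081, Ilvbl at 0.087, Tagln3 at 0.12, Tmprss7 at 0.14 and Pter at 0.14. These are descriptions over 6 samples, and the tissue difference makes up most of each pattern.

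The rest of the insulin and IGF pathway was read from 4 lists that leave the members out, also compiled with earlier results known. Of 130 genes 98 were tested, and limma called 0 higher and 1 lower in spinal cord OPC, or 1.02%, beside the 2.95% of all genes. At an unadjusted p under 0.05 there were 16 of 98 (16.3%), beside 10.9% of all tested genes, and the median difference was -0.0024, beside 0.00060 over all tested genes. The call count was 3 without cerebrum sample 1 and 4 without cerebrum sample 3. The called gene was Igfbpl1, an IGF-binding protein-like gene, which read 5.97, 5.95 and 5.85 in spinal cord OPC and 6.44, 6.70 and 6.44 in cerebrum OPC. All 3 spinal cord values were below the floor, so the gene entered the test through its cerebrum samples only. Nothing is read from its call for that reason (limma, adjusted p = 0.00313). With the spinal cord values set at the floor, the cerebrum level was 1.36-fold higher at this probe. A dimmer probe of Igfbpl1 differed by -0.34 ± 0.093 (limma, adjusted p = 0.108).

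Of the other ligands, receptors and binding proteins 10 of 20 were tested, and 9 of these did not pass. Picked out after their values were seen, Igf2bp2, which encodes an RNA-binding protein, differed by 0.38 ± 0.16 (adjusted p = 0.458, or 0.0253 with the block), Insr, the insulin receptor, by 0.28 (adjusted p = 0.386, or 0.084 with the block) and Stc2, which encodes a stanniocalcin, by -0.32 (adjusted p = 0.236, or 0.0818 with the block). The genes Ins1, Ins2 and Igfbp1 were not above the floor. Of the adaptors and feedback genes 28 of 39 were tested and 0 were called by limma, with 5 at an unadjusted p under 0.05. The largest differences were in Dok4, a docking protein, at 0.42 ± 0.14 (adjusted p = 0.235), and in Irs2, the other main insulin receptor substrate, at 0.42 ± 0.15 (adjusted p = 0.284). Irs2 read 9.14, 9.09 and 9.15 in spinal cord OPC and 9.00, 8.79 and 8.34 in cerebrum OPC, so the tissues did not overlap and the cerebrum samples were widely spread. With the preparation as a block the adjusted p was 0.0201 for Dok4 and 0.0365 for Irs2. Without cerebrum sample 3 the Irs2 difference was 0.23, and that of Dok4 was 0.59 and passed the test. Gab1, an adaptor picked out after its values were seen, differed by 0.41 ± 0.13, with an adjusted p of 0.176, or 0.0023 with the block.

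Of the PI3K, Akt, mTOR and FoxO genes 36 of 46 were tested and limma called 0, with 2 at an unadjusted p under 0.05. Inppl1, which encodes the lipid phosphatase SHIP2, had the largest difference at -0.35 ± 0.11 (adjusted p = 0.163, or 0.0209 with the block), followed by Rps6kb1, the ribosomal S6 kinase, at 0.28 ± 0.11 (adjusted p = 0.407). Of the Ras, Raf, MEK and ERK genes 24 of 25 were tested and limma called 0, with 4 at an unadjusted p under 0.05. Fos, an immediate early gene of this cascade, differed by 0.77 ± 0.25 (adjusted p = 0.199, or 0.04 with the block) and Dusp4, a phosphatase that limits ERK activity, by 0.48 ± 0.17 (adjusted p = 0.279, or 0.00852 with the block). Without cerebrum sample 3 the difference was 0.51 for Fos and 0.26 for Dusp4, Fos was at 0.48 without spinal cord sample 3, and Rps6kb1 was at 0.15 without spinal cord sample 2. Over the 4 lists the block called 9 of 98 genes (9.18%, beside 6.33% of all genes), 7 of them higher in the spinal cord cultures.

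**Figure D4:**
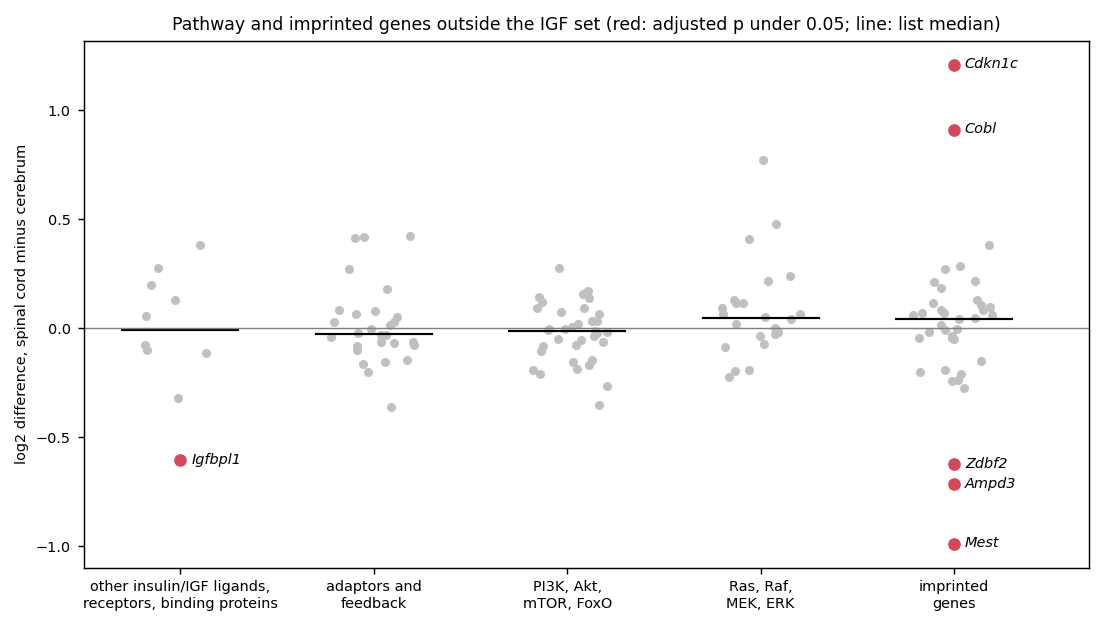
Log2 difference, spinal cord minus cerebrum OPC (vertical axis), of every tested gene in the 4 insulin and IGF signalling lists and among the imprinted genes outside the set, with 1 point per gene, a line at each list's median and red points for limma calls. Igfbpl1 is the only called signalling gene, and of the 5 called imprinted genes 2 lie above zero and 3 below it.

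Because Grb10, Igf2 and Igf2r are imprinted, 71 other genes listed as imprinted were read as a further list, also compiled with earlier results known. Whether each of them is imprinted in OPC was not measured. Of the 71 genes 38 were tested, and 2 rose and 3 fell in spinal cord OPC. That was 13.2% of those tested, beside the 2.95% of all genes, with a median difference of 0.045. Nothing is read from that share, because the list was not chosen independently of these data. Cdkn1c, which encodes the cell cycle inhibitor p57, read 10.28, 10.03 and 10.03 in spinal cord OPC and 8.76, 8.89 and 9.06 in cerebrum OPC, a rise of 1.21 ± 0.12 or 2.31-fold (adjusted p = 7.97e-05). Cobl, described above, was the other that rose. Mest, a maternally imprinted hydrolase gene, read 9.72, 9.90 and 9.48 in spinal cord OPC and 10.93, 10.75 and 10.38 in cerebrum OPC, a difference of -0.99 ± 0.15 (adjusted p = 0.00268), and 2 further Mest probes also fell. Ampd3, an AMP deaminase gene, differed by -0.72 ± 0.14 (adjusted p = 0.014), a call that was lost without cerebrum sample 2, spinal cord sample 1 or spinal cord sample 2. Zdbf2, the fifth call, named after its values were seen, differed by -0.62 ± 0.13 (adjusted p = 0.0212). The count of 5 ranged between 3 without cerebrum sample 2 or spinal cord sample 2 and 6 without cerebrum sample 3.

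Markers of other cells that such cultures can hold were read beside these results. Of the astrocyte list 8 of 12 genes were above the floor, with Gfap, Aldh1l1, Gja1 and Fgfr3 not above it, and its summed intensity was 21448 to 23182 in spinal cord OPC and 23624 to 31346 in cerebrum OPC. Sox9, also made in glial progenitors, fell by 1.25 in spinal cord OPC (adjusted p = 0.00155) and Acsbg1 fell by 0.79 (adjusted p = 0.0027). The other 6 tested genes did not pass, 5 of the 8 had a difference above zero, with Aldoc at 0.33 (adjusted p = 0.15, or 0.0126 with the block), and the list median was 0.071. Without Sox9, left out after its values were seen, the sum was higher in spinal cord OPC, at 15695 to 17053, against 13698 to 14802 in cerebrum OPC. The part of these genes in the Igfbp2 and Grb10 differences was not tested. Of the choroid plexus and ependyma list 4 of 12 were above the floor, with Ttr, Folr1, Kl and Clic6 not above it, and its sums were 355.1 to 366.7 in spinal cord OPC and 427.5 to 494.4 in cerebrum OPC. Otx2, also a forebrain transcription factor, read 5.67 to 5.75 in spinal cord OPC, below the floor, and 6.65 to 7.15 in cerebrum OPC (adjusted p = 6.15e-05). It too entered the test through its cerebrum samples only, so nothing is read from its call. Meningeal genes above the floor were 4 of 13, without Dcn, Lum, Col1a2 and Col3a1, at sums of 440.7 to 472.4 in spinal cord OPC and 468.9 to 560.3 in cerebrum OPC, which overlap. They went both ways, with Prrx1 at -0.56 (adjusted p = 0.104, or 0.00372 with the block) and Ptgds at 0.53 (adjusted p = 0.0531, or 0.00545 with the block). The part of these lists in the Igfbp2 difference was not tested either.

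Of the microglia and macrophage list 5 of 18 genes passed the floor, without Cx3cr1, P2ry12, Tmem119 and Trem2, and their sums overlapped between the tissues. Endothelial and mural markers were above it at 5 of 15 and also overlapped in their sums. Neuronal markers above the floor were 6 of 15, without Tubb3, Snap25, Stmn2 and Nefl. They summed to 9768 to 11704 in spinal cord OPC and 8897 to 9664 in cerebrum OPC. Most of each sum came from Map2, which overlapped between the tissues and differed by 0.20 (limma, adjusted p = 0.634). Of the 6, 4 had a difference above zero and 2 below it, with Dcx at 0.48 (adjusted p = 0.063, or 0.0020 with the block). The part of these genes in the Grb10 difference was not tested. Within the lineage Mbp, the myelin basic protein gene, rose by 1.04 ± 0.11 in spinal cord OPC (adjusted p = 0.00011) and Gpr17, a marker of committed precursors, fell by 1.37 (adjusted p = 0.00495). Schwann cell markers were above the floor at 6 of 10, with Prx not above it, and held Gap43, which rose by 0.40, and Sox2, which fell by 0.70. Whether the state of the cells within the lineage had a part in the Grb10 and Igfbp2 differences was not tested.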

How the data were processed

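Total RNA of 6 OPC cultures was extracted with a column kit, copied into biotin-labelled cRNA and read on Illumina bead arrays (per the labels' protocols), with GenomeStudio 2011.1 among the software that the submitters' processing notes list. The values used were the linear intensities of the authors' deposited value table, whose normalisation method was not given in the sources used here. Gene symbols came from a further deposited table, of which 12 columns of intensities and detection p-values were left out because their names match no sample's labels. Of 30869 symbols 16219 were current in RefSeq's gene table for GRCm38.p6, 5718 were synonyms of 1 gene and 8932 had no match. The direct neighbours of each member were read from the order of protein-coding genes by their coordinates in that table. Probes with no match (3165 of those tested) entered the fit only.

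Log2 intensity was fitted with limma 3.58.1 in R 4.3.3 (lmFit, then eBayes with its trend option) as spinal cord minus cerebrum over the 20988 tested probes, with Benjamini-Hochberg adjustment and a threshold of 0.05. The fit was tested on simulated data. The design text ties equal sample numbers to 1 preparation, and deviations from the tissue means correlated at 0.525, 0.206 and 0.496 within numbers and at -0.455 to 0.0314 across them. The fit without the block is reported, with blocked values where a call changed. Alternatives were the preparation as a block, other filters, no trend, quantile normalisation, background subtraction, the mean of a gene's tested probes, and leaving out each sample. Precision is limited by the 6 arrays. The members, lists and floor were chosen with earlier results of these data known. Text names all member probes, up to 4 called genes a list or the 2 largest differences where none was called, direct neighbours, 5 genes closest to Grb10 and to Igfbp2, and called markers.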

Additional observations from a re-analysis of the deposited data

How the results depend on the processing

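The count of called genes over the whole table was 331. It was 711 with the preparation as a replicate block, 212 with the stricter background filter, and 196 to 574 when 1 sample was left out, lowest without spinal cord sample 2 and highest without cerebrum sample 3. The count of called member genes was 2 under every alternative run, which is no sign of stability, since this contrast chose the members. Among the insulin and IGF pathway genes outside the set the count of 1 became 9 with the replicate block, 2 with the mean of all tested probes, 0 with the stricter filter, which leaves fewer probes to test, and 1 to 4 when 1 sample was left out (3 without cerebrum sample 1, 4 without cerebrum sample 3). The imprinted count of 5 became 7 with the replicate block and 3 to 6 when 1 sample was left out. The cause of these shifts was not tested. Of 199 alternative values of the member probes 192 moved by less than the spread between samples, and the other 7, all after background subtraction, moved further. Differences of probes near the floor were the most limited by background.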
